A study of Rattus norvegicus with 26 samples.

Results

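The comparison set RNA mixtures of 4 brain cell cultures, called NAOM, against mixtures of 2 of them, called NA2, at a fixed neuronal share. It used 4 of the 26 arrays of the series, chosen by the mixture named in the sample titles: 2 NAOM arrays and 2 NA2 arrays. NAOM held a fraction of 0.5 neuronal (N), 0.2 astrocytic (A), 0.2 oligodendrocytic (O) and 0.1 microglial (M) RNA, and NA2 held 0.5 neuronal and 0.5 astrocytic RNA. Thus 0.3 of the RNA changed source, from astrocytic to oligodendrocytic and microglial, while the neuronal fraction stayed at 0.5. The mixture NAO, with 0.5 neuronal, 0.25 astrocytic and 0.25 oligodendrocytic RNA on 2 arrays, lies between them and served to place each change.

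The RNA came from primary cultures of the cerebral cortex of rats of postnatal day 1, and no treatment, strain or genotype was named. Each mixture was made from named cultures. Replicate 1 of every mixture used N1 and A1, with O2 and M2 where those cell types were added, and replicate 2 used N2, A4, O4 and M3. The 2 replicates of a mixture therefore came from separate cultures, but all mixtures of 1 number share their parents. The p-values rest on the spread that a mean per mixture and a shift per number leave over all 10 mixture arrays. That spread holds the mixing, the hybridisation and those differences between the 2 sets of parents that vary by mixture. The fractions are of RNA and were set by mixing, so they give no numbers of cells. Within a culture that holds several cell types, more cells of a type and more RNA per cell cannot be told apart.

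Microglia are the resident macrophages of the brain. They are of myeloid origin and carry receptors for purines, immunoglobulins, complement fragments and microbial products, many of which signal through adaptors with an immunoreceptor tyrosine-based activation motif (ITAM). Oligodendrocytes make myelin, the lipid-rich membrane around axons, under the control of transcription factors such as Sox10 and Myrf. Astrocytes take up transmitters, couple through gap junctions and, in culture, often lie beside cells that lay down matrix.

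Values are log2 expression levels per probe set, made by Robust Multi-array Average (RMA). The medians of the 6 NA2, NAO and NAOM arrays lay between 5.38 and 5.41. The arrays of a replicate pair correlated at r = 0.978 for NA2, 0.986 for NAO and 0.987 for NAOM over all probe sets, and NA2 with NAOM of the same number at r = 0.979 for each number. RMA values hold no detection call, so the median of each array stood in for visibility, and differences that start below it are given as measured on this scale. The labels of the parent cultures were set against marker lists. The 24 neuronal genes averaged 10.49 and 10.43 in the neuronal parents and at most 5.76 in the other parents. The 11 oligodendrocyte lineage regulators averaged 9.72 and 9.92 in the oligodendrocytic parents, and still 8.0 in M2 and 7.02 in M3 against 6.06 and 5.74 in the astrocytic ones. The 16 leukocyte surface genes averaged 9.45 and 9.40 in the microglial parents and 8.07 and 8.55 in the oligodendrocytic ones, against 4.80 and 4.78 in the astrocytic ones. The RNA labelled oligodendrocytic therefore carried high levels of myeloid transcripts, and the RNA labelled microglial carried oligodendrocyte transcripts. NAO holds the oligodendrocytic RNA without the microglial, so its values stand beside the results below; how much each carried-over cell type adds to them was not otherwise tested. The astrocytic parents differed from each other: 20 collagen and matrix genes averaged 8.99 in A1 and 10.91 in A4.

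Which transcripts changed when oligodendrocytic and microglial RNA entered at a constant neuronal fraction was tested over 31042 probe sets (limma, replicate number as a block, Benjamini-Hochberg adjusted p under 0.05). In NAOM 789 probe sets (2.54% of those tested) were higher than in NA2 and 722 (2.33%) were lower. Counted by gene, with 1 probe set each, 550 of 14217 genes rose (3.87%) and 486 fell (3.42%). All of the called probe sets differed in the same direction in both replicate pairs. The test is on the mean of the 2 pair differences, so this is no separate support. The rises were steeper than the falls: 458 probe sets rose by log2 1 or more and 94 by 3 or more, whereas 302 fell by at least 1 and 16 by at least 1.5. The replacement of 0.5 by 0.2 astrocytic RNA corresponds to a log2 difference of -1.32, a 2.5-fold dilution, for a transcript found only in astrocytes. Without the replicate block 420 rose and 126 fell. With NA2 replicate 1 left out 365 rose and 278 fell, with NA2 replicate 2 left out 337 and 288, with NAOM replicate 1 left out 392 and 380, and with NAOM replicate 2 left out 466 and 377.

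The called transcripts were sorted by the 16 unmixed culture arrays, on which a probe set was assigned to a culture when it was higher there than in each other culture (adjusted p under 0.05 and log2 difference of at least 1). Of 816 microglia-class probe sets, 305 (37.4%) were higher in NAOM and 0 lower, with a median difference of 0.51. Of 281 high in both the oligodendrocytic and the microglial cultures, 167 (59.4%) were higher and 0 lower, with a median of 0.89. Of 456 oligodendrocyte-class probe sets, 203 (44.5%) were higher and 0 lower, with a median of 0.72. Of 1306 astrocyte-class probe sets, 580 (44.4%) were lower and 0 higher, with a median of -0.76. Neuronal transcripts showed almost no calls: of 2326 neuron-class probe sets, 2 were higher and 6 lower, with a median of -0.01. The parents are among these 16 arrays, so class and mixture are not fully separate. With the 8 cultures that are no parent, the oligodendrocyte class held 231 probe sets, and 106 of them were called higher.

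How abundant a transcript was in its own culture went along with whether it was called higher in NAOM than in NA2. In the microglia class such a call does not separate microglial RNA from the oligodendrocytic RNA, which also carried myeloid transcripts. From NAO to NAOM, where only microglial RNA entered, 37 probe sets were called higher, all of the microglia class. Of microglia-class probe sets with a level below 7 in the microglial parents, 9 of 184 (4.89%) were called higher. The share was 36.2% at 7 to 9, 49.8% at 9 to 11 and 76.6% at 11 or more. For the class shared by oligodendrocytic and microglial cultures the shares were 29.7%, 58.5%, 82.7% and 100%, the last being 14 of 14. For the oligodendrocyte class they were 20.2%, 35.7%, 56.4% and 81.6%. In each of the 3 classes the share called was lowest in the lowest bin and highest in the highest bin.

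**Figure D1:**
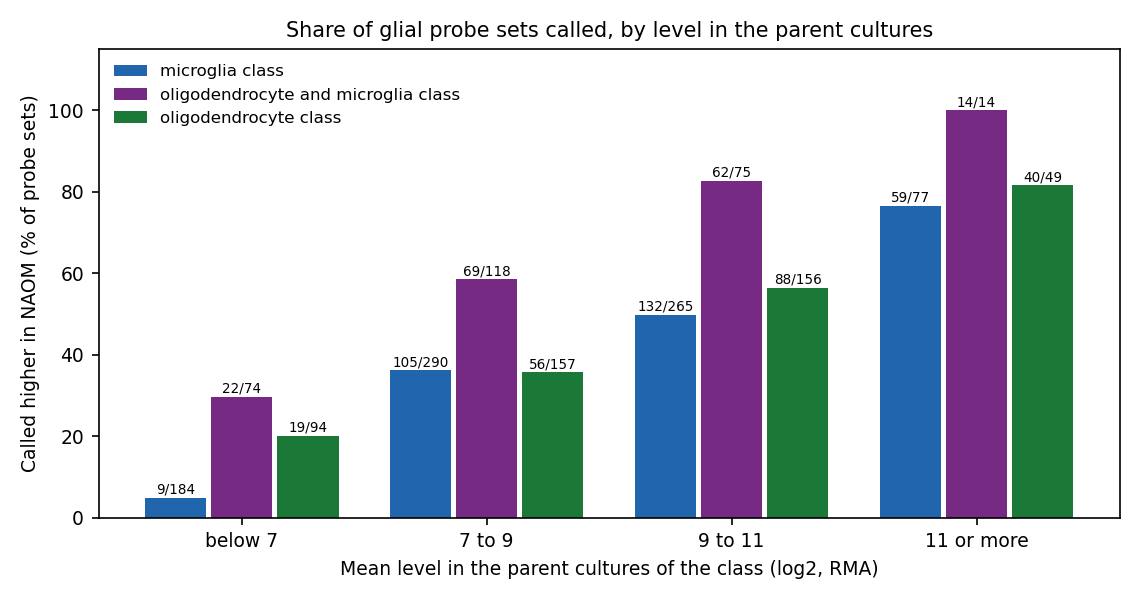
Share of glial probe sets called higher in NAOM than in NA2 (vertical axis, percent) by their mean level in the parent cultures of their class (horizontal axis, log2), for 3 classes set on the unmixed cultures; the fractions above the bars give called over all probe sets. In each class the bars grow from the lowest to the highest bin, from 4.89% to 76.6% in the microglia class.

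The 15 genes that rose most were led by the macrophage surface receptor Adgre1 (F4/80). Adgre1 lay at 3.35 and 3.27 in NA2 and at 9.90 and 10.35 in NAOM. Here and below, ± gives the SE of the fit over all 10 mixture arrays, not the spread of the 2 pairs. The rise of Adgre1 was 6.81 ± 0.17 on the log2 scale, or 112-fold, with an adjusted p of 2.82e-06 (limma). In NAO, which holds no RNA labelled microglial, it was already at 9.69 and 10.27, and the oligodendrocytic parents read 11.54 and 11.60 beside the microglial parents at 11.31 and 11.57.

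Fcer1g, the shared gamma chain of Fc receptors, stood at 4.75 and 4.80 in NA2 and 11.50 and 11.34 in NAOM, a rise of 6.65 ± 0.17 (adjusted p = 2.82e-06). Mpeg1, a pore-forming protein of macrophages, stood at 4.53 and 4.19 and 11.06 and 10.71, a rise of 6.52 ± 0.31 (adjusted p = 3.6e-05). Lyz2, the macrophage lysozyme, went from 6.49 and 5.83 to 11.99 and 12.29, a rise of 5.98 ± 0.26; its NA2 arrays were above their medians. None of these genes had overlapping NA2 and NAOM arrays, but they were picked by the size of that difference. C1qa, a chain of the first complement component, rose by 5.74, the cysteine protease Ctss by 5.56, the lysosomal membrane protein Cd68 by 5.47 and the calcium-binding microglial marker Aif1 (Iba1) by 5.33. Fcrl2 (6.26), Fcgr2b (5.29), Clec4a3 (5.29), Cd53 (5.29) and Ms4a6bl1 (5.26), all membrane proteins of leukocytes, were in the same group. The remaining 2 of the 15 were of the oligodendrocyte class: Bcas1, a marker of early myelinating cells, at 6.09 and 4.98 in NA2 and 10.87 and 11.22 in NAOM, and Pnlip, which encodes pancreatic lipase, at 4.98 and 4.70 and 9.55 and 10.69.

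A second probe set of Aif1 differed by 0.07 and a second of Ms4a6bl1 by 0.65, and neither passed the test, so both rises rest on 1 probe set. Fcgr2b lost its call without the replicate block (adjusted p = 0.0853). It also lost it when any NA2 or NAOM array was left out: adjusted p = 0.135 without NA2 replicate 1, 0.2 without NA2 replicate 2, 0.171 without NAOM replicate 1 and 0.106 without NAOM replicate 2.

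**Figure D2:**
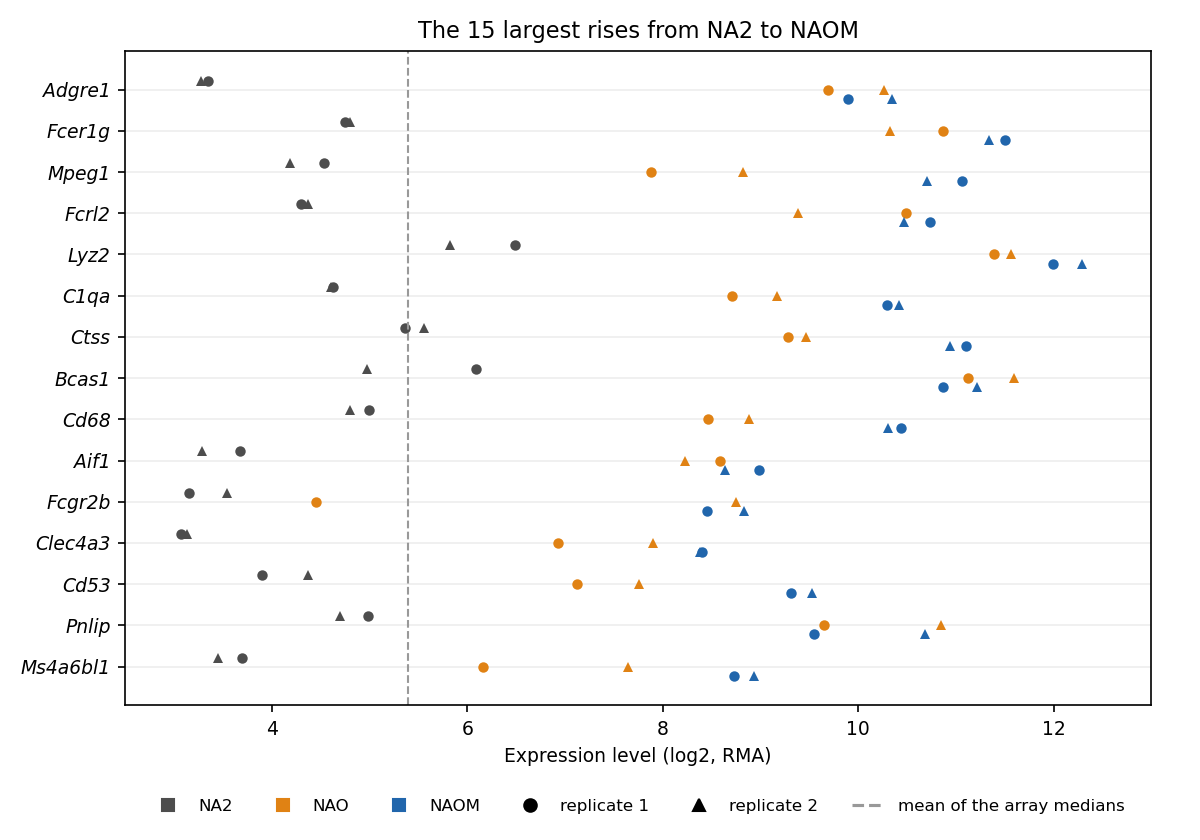
Expression level (log2, horizontal axis) of the 15 genes with the largest rise, on each NA2, NAO and NAOM array; circles are replicate 1, triangles replicate 2, and the dashed line is the mean of the array medians. The genes were picked by the size of this rise, and their NA2 and NAOM arrays do not overlap. NAO lies at or near NAOM for Adgre1, Bcas1 and Pnlip and between the others for Mpeg1, Cd68, Cd53 and Ctss.

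A transcript was counted as newly visible when it was called higher, lay below the array median on both NA2 arrays and above it on both NAOM arrays. This held for 230 probe sets, or 159 genes, with mean NAOM levels from 5.44 to 11.42 and a median rise of 2.53. Of the 159 genes, 88 were of the microglia class, 45 of the class shared by oligodendrocytic and microglial cultures, 24 of the oligodendrocyte class and 2 of no class. The 10 with the highest NAOM level were Fcer1g, Mpeg1, Fcrl2, Cd68, C1qa, Adgre1, Pnlip, Pf4, C1qb and Lcp1. With the 60th percentile of the array as the level of visibility the count was 194 probe sets, of which 118 were shared with the 230, and with the 40th it was 237, of which 140 were shared.

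Most newly visible genes had already crossed the median with oligodendrocytic RNA alone. On both NAO arrays 107 of the 159 genes were above the median, on 1 of them 28, and on neither 24. All 24 genes below the median on both NAO arrays were of the microglia class. These were Cfd, Irf8, Gngt2, Lcp2, Arhgap24, Nfam1, Colec12, Lyl1, Klhl30, Clec12a, P2ry12, Irf5, Cd37, Bin2, Rgs1, Arhgap30, Tbc1d4, Sash3, Sting1, Sh3bp2, Gna15, Slco2b1, Arhgap45 and Smagp, most of them named after their values were seen. They were dim in NAOM, with mean levels between 5.44 and 7.20, although the microglial parents held them at 7.89 to 10.59. Of the 88 microglia-class genes, 45 were above the median on both NAO arrays. Of the 24 oligodendrocyte-class genes, 23 were above it on both.

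The step from NAO to NAOM isolates the entry of microglial RNA at a fraction of 0.1, with astrocytic and oligodendrocytic RNA each lowered from 0.25 to 0.2. Here 37 probe sets (0.119% of those tested), or 27 genes (0.19%), were higher in NAOM, and all were of the microglia class. In the other direction limma called 0. At an unadjusted p under 0.05, 631 of the 31042 probe sets tested were lower and 764 higher. By adjusted p, 3 were lower with trended and robust variance, 14 with array weights and 30 in a fit of NA2, NAO and NAOM alone. The 27 genes, most of them named after their values were seen, rose by 0.87 to 2.65. The count depended on single arrays: 16 probe sets without NA2 replicate 1 or replicate 2, 2 without NAO replicate 1, 0 without NAOM replicate 1 and 4 without NAOM replicate 2, and 13 without the replicate block. The step from NA2 to NAO, by comparison, had 575 probe sets higher (1.85%; 388 genes, 2.73%) and 502 lower (1.62%; 345 genes, 2.43%); these 3 contrasts share arrays. Those counts moved as well, to 280 and 61 without the block, 191 and 55 without NA2 replicate 1, 181 and 67 without NA2 replicate 2, 300 and 106 without NAO replicate 1, and 212 and 61 without NAO replicate 2.

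P2ry12, the purine receptor by which microglia sense nucleotides, had the smallest adjusted p of the 27. It was at 3.36 and 3.23 in NA2, 3.85 and 3.83 in NAO and 6.08 and 5.96 in NAOM. The NAOM arrays stood apart from all 4 others. From NAO to NAOM it rose by 2.18 ± 0.10 (adjusted p = 0.00117), and from NA2 to NAOM by 2.72 ± 0.10 (adjusted p = 1.25e-05). The microglial parents held it at 9.96 and 10.24 and the oligodendrocytic ones at 6.49 and 6.51. Gpr34, a lysophosphatidylserine receptor of microglia, was at 3.42 and 3.12, 3.28 and 3.25 and 5.03 and 4.88 in NA2, NAO and NAOM. NA2 and NAO overlapped, and only the NAOM arrays were higher. Its NAOM over NAO difference was 1.69 ± 0.11 (adjusted p = 0.00442), and its NAOM level remained below the array median.

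Trem2, a lipid-sensing receptor that signals through Tyrobp, was at 5.53 and 5.70 in NA2, 6.63 and 6.39 in NAO and 8.85 and 8.39 in NAOM. It was called at each step, by 0.90 ± 0.16 (adjusted p = 0.0257) and then by 2.11 ± 0.16 (adjusted p = 0.00624). Cfd, complement factor D, was at 3.82 and 3.51, 4.41 and 4.70 and 7.54 and 6.86. Its second step of 2.65 ± 0.20 (adjusted p = 0.00624) was the largest of the 27. Irf8, a transcription factor of the myeloid lineage, went from 5.13 and 4.73 in NAO to 6.66 and 6.39 in NAOM (1.59 ± 0.15, adjusted p = 0.0138). Csf1r, the receptor for the growth factor that microglia need to survive, was at 4.58 and 4.35, 8.10 and 7.88 and 9.53 and 9.38, so it rose at both steps. Lpl, lipoprotein lipase, lay at 7.86 and 7.08 in NA2, 7.54 and 7.08 in NAO and 9.36 and 8.81 in NAOM. Its 2 lower mixtures overlapped, and its NAOM over NAO difference was 1.77 ± 0.11 (adjusted p = 0.00442).

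For a second set of myeloid genes no difference between NAO and NAOM was called. Il1b, the cytokine interleukin-1 beta, was at 4.44 and 4.39 in NA2, 8.20 and 9.14 in NAO and 8.26 and 8.95 in NAOM. Its NAO and NAOM arrays overlapped. The oligodendrocytic parents held it at 10.67 and 11.03, above the microglial parents at 7.77 and 8.11. Itgax (CD11c), an integrin of dendritic cells and activated microglia, was at 3.75 and 3.94, 5.86 and 5.98 and 5.62 and 6.17, with 8.68 and 8.84 in the oligodendrocytic and 6.77 and 6.62 in the microglial parents. Fcgr3a, a low-affinity immunoglobulin receptor, was at 4.33 and 4.39, 7.96 and 8.06 and 7.95 and 7.59. None of Il1b, Itgax, Fcgr3a, Adgre1 or Aif1 passed the test between NAO and NAOM; the differences were -0.07 ± 0.33, -0.03 ± 0.15, -0.24 ± 0.14, 0.14 ± 0.17 and 0.40 ± 0.16.

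**Figure D3:**
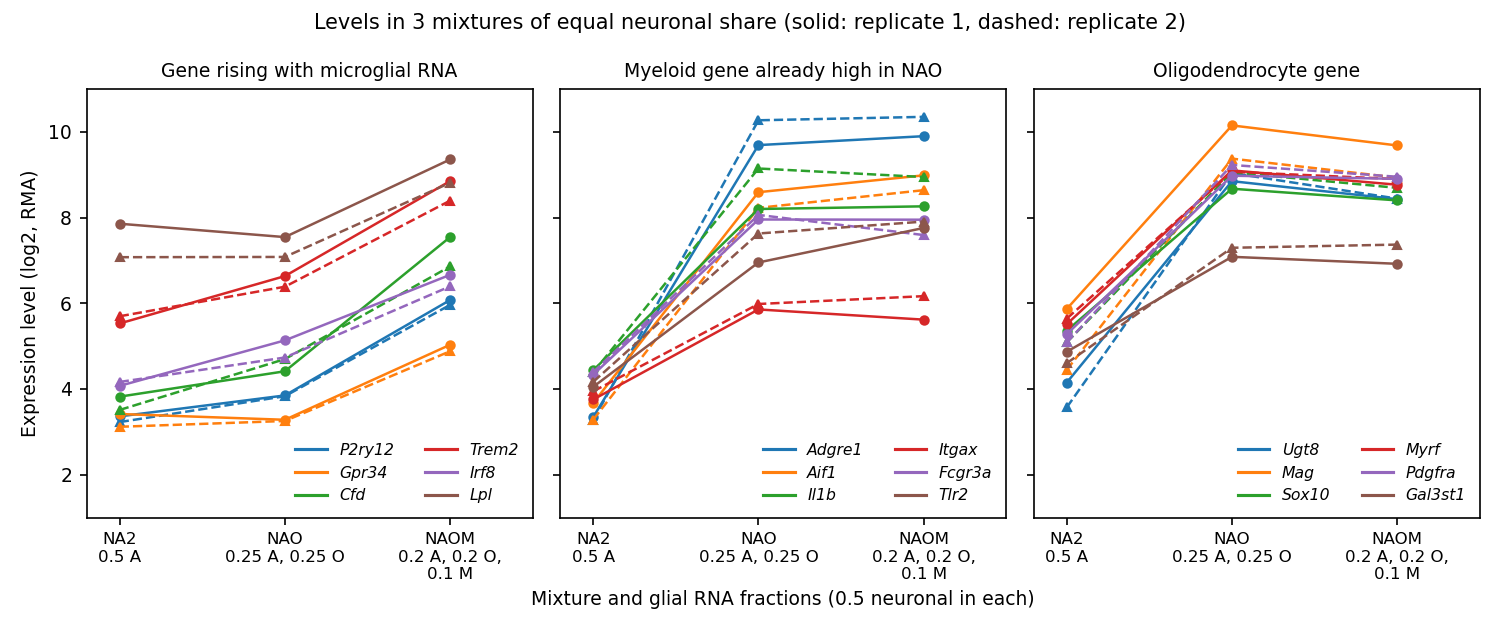
Expression level (log2, vertical axis) of 18 genes, chosen after their values were seen, in the mixtures NA2, NAO and NAOM (horizontal axis, with their glial RNA fractions), 1 line per gene and replicate. The left panel shows genes called higher in NAOM than in NAO, such as P2ry12; the middle panel myeloid genes such as Adgre1 that already stood apart from NA2 in NAO; the right panel oligodendrocyte genes such as Ugt8, which were high in NAO and NAOM.

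For a few genes the 2 NAO arrays disagreed. Among the 550 genes called higher, 7 differed by log2 2 or more between the NAO arrays, against 1 between the NAOM arrays. Fcgr2b, an inhibitory immunoglobulin receptor, was at 4.45 and 8.75 in NAO, beside 6.98 and 10.77 in the parents O2 and O4. Mrc1, the mannose receptor, was at 4.22 and 7.18, beside 6.53 and 9.45. Pf4, a chemokine made by macrophages and platelets, was at 6.35 and 9.13, beside 8.64 and 11.25. Spp1, osteopontin, ran the other way, at 10.19 and 7.53 beside 11.84 and 8.80. In NAOM, where M2 or M3 was added, these 4 genes were closer together, at 8.46 and 8.83, 7.95 and 8.05, 9.39 and 10.27 and 11.80 and 10.71. Pf4 lost its call against NA2 without NA2 replicate 2 (adjusted p = 0.0759) and without NAOM replicate 2 (0.0552), Mrc1 without NA2 replicate 2 (0.0942) and without NAOM replicate 1 (0.0796), and Spp1 without the replicate block (0.0694).

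Myeloid promoters often carry a purine-rich ETS element bound by the factor PU.1. The letters GAGGAAGT, on either strand, were searched in the 250 bases before the start of each gene in the RefSeq promoter table of GRCr8. They were found in 683 of 33469 windows (2.04%), in 282 of 13242 windows of genes measured here (2.13%), in 15 of 206 windows of microglia-class genes called higher (7.28%) and in 2 of 21 windows of genes higher in NAOM than in NAO. A match is a description of the sequence and not evidence of binding. The windows to show were picked because they hold the element, which the window of Mx1, not shown, held as well. They are those of Cd53, a tetraspanin of leukocytes called higher in NAOM than in NAO, and Fcgr3a, which was not. Each runs as far as the base before the outermost annotated start of the gene. Both are written 5′ to 3′ on the strand of the gene, with the element, here on the other strand, in capitals. The Cd53 stretch is chr2:197087926-197088146 on the minus strand, 221 bases, with the element 17 to 10 bases before the start. The Fcgr3a stretch is chr13:85782386-85782635 on the plus strand, 250 bases, with the element 56 to 49 bases before the start.
Cd53: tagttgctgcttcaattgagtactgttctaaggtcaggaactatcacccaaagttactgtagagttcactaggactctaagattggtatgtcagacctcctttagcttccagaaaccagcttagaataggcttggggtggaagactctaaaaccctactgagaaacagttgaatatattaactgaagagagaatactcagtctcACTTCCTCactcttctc
Fcgr3a: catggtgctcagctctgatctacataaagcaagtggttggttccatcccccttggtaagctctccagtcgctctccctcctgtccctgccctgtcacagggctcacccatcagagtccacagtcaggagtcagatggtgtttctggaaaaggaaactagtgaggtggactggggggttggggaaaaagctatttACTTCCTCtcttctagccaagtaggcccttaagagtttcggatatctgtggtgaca

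The rest of the immune transcripts were read by gene list. The lists were written with earlier results of these data known, so their counts are descriptions, to be read against 3.87% of all genes rising, 3.42% falling and a median difference of -0.01 over all genes. Of 11 measured homeostatic microglial genes, 6 rose and 1 fell, with a median of 1.69. Aif1, Csf1r, Siglec5, P2ry12, P2ry6 and Gpr34 rose, P2ry6 not without the replicate block (adjusted p = 0.0758). Siglec5 was of the oligodendrocyte class, at 9.34 and 8.63 in the oligodendrocytic and 6.19 and 5.72 in the microglial parents, and stood at 7.06 and 6.38 in NAO and 6.83 and 6.26 in NAOM. The fractalkine receptor Cx3cr1, at 4.10 and 4.26 in NA2 and 4.49 and 4.52 in NAOM, did not pass the test (difference 0.33 ± 0.10). Its microglial parents read 6.42 and 7.55. Tmem119 did not pass either, at 4.84 and 6.78 and 6.04 and 6.27. Its 2 NA2 arrays lay on either side of both NAOM arrays, with 4.97 and 8.52 in the astrocytic parents. Olfml3, often used as a microglial gene, fell by 1.27 and was of the astrocyte class in these cultures. Its call was lost without the replicate block (adjusted p = 0.215).

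Of 16 leukocyte surface and scavenger receptors, 13 rose and 0 fell, with a median of 2.94, and 12 of 16 were called in NAO. Ptprc (CD45), the phosphatase that marks blood-derived cells, was at 3.67 and 3.43 in NA2, 6.09 and 5.67 in NAO and 7.37 and 6.47 in NAOM. The 3 mixtures did not overlap, and NAOM stood 3.37 ± 0.23 above NA2 (adjusted p = 0.000216). Cd14, the coreceptor for endotoxin, rose by 2.51, the beta-glucan receptor Clec7a by 3.79, the costimulator Cd86 by 1.08 and the integrin Itgb2 by 3.83. Its partner Itgam (CD11b) rose by 0.57, but not without the block (adjusted p = 0.118) or with any NA2 or NAOM array left out (0.0936 to 0.13). Cd163, Cd36 and Cd48 did not pass the test, with differences of -0.07, 0.09 and -0.15.

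Of 5 Fc receptors, 4 rose (Fcer1g, Fcgr2b, Fcgr3a and Fcgr1a), while Fcgrt, the neonatal Fc receptor of many cell types, differed by -0.32 and did not pass. Of 14 ITAM adaptors and kinases, 13 rose and 0 fell, with a median of 1.82. Tyrobp, the adaptor of Trem2, was at 3.96 and 3.79 in NA2, 7.97 and 7.76 in NAO and 9.11 and 8.69 in NAOM. It rose by 5.03 ± 0.16 (adjusted p = 5.96e-06). The kinases Syk (1.49), Lyn (1.94), Fgr (1.47) and Btk (0.94), the exchange factor Vav1 (2.01) and the scaffold Lcp2 (2.22) rose to NAOM levels between 4.54 and 6.63. Btk lost its call without NA2 replicate 1 (adjusted p = 0.0683), NA2 replicate 2 (0.0613) or NAOM replicate 1 (0.0542), where the list counted 11, 12 and 11. Of 10 myeloid transcription and growth factor genes, 5 rose: Irf8, Cebpa (1.51), Irf5 (1.46), Csf2ra (1.47) and Csf3r (1.45). Without NA2 replicate 2 this was 3. Runx1 (0.07) and Cebpb (0.15) did not pass.

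Complement genes went in both directions. Of 11 measured, 7 rose and 2 fell. C1qa was at 4.63 and 4.60 in NA2 and 10.30 and 10.42 in NAOM, C1qb at 5.05 and 5.35 and 9.57 and 9.79, and C1qc at 4.56 and 4.38 and 9.33 and 9.23. These 3 chains of C1q rose together by 5.74, 4.48 and 4.81. The proteases that join C1q in the same complex fell: C1r from 9.64 and 8.26 to 8.43 and 7.08 and C1s from 10.59 and 8.98 to 9.40 and 7.83. Both are of the astrocyte class here, and both falls lost their call without the replicate block (adjusted p = 0.766 and 0.867). The receptor C5ar1 rose by 3.28, properdin (Cfp) by 1.62 and C3ar1 by 0.78. C3ar1 lost its call without the block (adjusted p = 0.148) and with any NA2 or NAOM array left out (0.114 to 0.21), so that 6 complement genes rose in each of these fits. C3 itself did not pass (difference 1.64 ± 0.93).

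Antigen presentation was seen in part. Of 8 class II genes, 2 rose, both of them chains of the peptide-loading molecule DM: RT1-DMb, from 5.65 and 5.07 to 7.82 and 8.11, and RT1-DMa, from 6.19 and 6.05 to 7.23 and 7.44. Without NA2 replicate 2 this was 1. The invariant chain Cd74 was at 3.66 and 3.67 in NA2 and 3.86 and 4.06 in NAOM, below the array medians. It was at 5.71 and 5.18 in the microglial parents themselves. The class II regulator Ciita and the other class II chains did not pass. Of 11 class I, loading and immunoproteasome genes, 2 rose, B2m by 0.46 and RT1-S3 by 1.27, and neither without the replicate block. The count was 1 without NA2 replicate 1 and 0 without NA2 replicate 2 or any NAO or NAOM array.

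Of 17 interferon-stimulated genes, 6 rose and 1 fell. Usp18, a brake on interferon signalling, was at 5.45 and 4.28 in NA2, 7.54 and 7.48 in NAO and 7.46 and 7.36 in NAOM. Both NAO arrays were above both NAOM arrays, and the parents read 9.88 and 9.69 (O) and 6.20 and 4.72 (M). The antiviral genes Mx2 (1.72) and Oas1a (1.04) were of the same oligodendrocyte class. Mx1 (1.41), Irf7 (1.30) and Irf9 (0.81) rose too, and none of these 3 nor Mx2 kept its call without the replicate block. The list counted 2 without the block, without NA2 replicate 1 or without NA2 replicate 2, and 4 without NAOM replicate 1. Ifitm3 fell from 12.15 and 10.62 to 10.85 and 9.45, and not without the block (adjusted p = 0.832). Isg15 (0.69), Ifit1 (0.24) and Gbp2 (-0.76) did not pass.

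Of 18 chemokines and receptors, 6 rose: Ccl6, Ccl3, Ccl4, Ccl20, Cxcl16 and Cxcl1. The NA2 and NAOM arrays of Cxcl1 overlapped, at 5.93 and 7.75 and 6.71 and 8.69. Its limma call was lost without the replicate block (adjusted p = 0.954). Cxcl1 and Cxcl16 also lost their calls with any NA2 or NAOM array left out, and Cxcl1 with any NAO array left out. Ccl3 was at 4.60 and 5.04 in NA2, 8.28 and 9.06 in NAO and 8.06 and 9.04 in NAOM. Its NAO and NAOM arrays overlapped. Ccl20, which draws cells through Ccr6, was at 4.67 and 4.73, 7.43 and 6.46 and 7.29 and 6.23, with 9.58 and 8.43 in the oligodendrocytic and 4.12 and 4.85 in the microglial parents. The chemokine count was 4 without the block, 3 without NA2 replicate 1, 2 without NA2 replicate 2 and 3 without either NAOM array. Ccl20 was lost in the first 3 of these fits and without NAOM replicate 1 (adjusted p 0.0517 to 0.142). Ccl2 (0.11), Cxcl10 (0.12) and the receptors Ccr2 (-0.10) and Cxcr4 (-0.39) did not pass. Of 16 cytokine, Toll-like receptor and inflammasome genes, 9 rose, with a median of 1.41: Il1b, Il18, Tlr1, Tlr2, Tlr4, Tlr7, the endotoxin coreceptor Ly96, the inflammasome adaptor Pycard and the protease Casp1. The count was 6 without NA2 replicate 2 or NAOM replicate 1. Tlr2 was at 4.05 and 4.17 in NA2, 6.95 and 7.63 in NAO and 7.76 and 7.91 in NAOM. Tnf (0.14), Il6 (-0.92) and Il10 (0.24) did not pass.

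The 19 lysosomal genes and cathepsins averaged 9.32 and 9.11 in NA2 already, and 10.71 and 10.53 in NAOM. Of these, 10 rose and 0 fell, with a median of 0.64, and 0 were newly visible. Ctss was at 5.37 and 5.56 in NA2 and 11.10 and 10.94 in NAOM, a rise of 5.56 ± 0.12. Ctsd, a protease of all lysosomes, was at 10.75 and 10.94 and 11.75 and 11.91, a rise of 0.98 ± 0.10. The groups did not overlap for either gene. Gpnmb, a glycoprotein of lipid-laden macrophages, rose by 3.22 ± 0.35, where the parents gave an expected 1.99. Lamp1 (0.14) and Lamp2 (-0.23), the main lysosomal membrane proteins, did not pass. The count was 6 without the block, 5 without NA2 replicate 2 and 7 without NA2 replicate 1 or either NAOM array. Of 14 genes of macrophage lipid handling and secretion, 6 rose (Anxa3, Spp1, Ch25h, Lpl, Apoc1 and Plin2), 2 without the block, 3 without NA2 replicate 1 and 4 without NA2 replicate 2. Plin2, the coat protein of lipid droplets, was at 7.25 and 7.32 in NA2, 7.12 and 7.14 in NAO and 8.58 and 8.04 in NAOM. Apoe was at 12.58 and 11.08 and 13.66 and 13.58 in NA2 and NAOM and did not pass (difference 1.79 ± 0.41, adjusted p = 0.0571). It was called higher with array weights (0.0152), with NA2, NAO and NAOM alone in the fit (0.015) and with NA2 and NAOM alone (0.0282). Plin2 lost its call without NA2 replicate 1 (0.108) or NA2 replicate 2 (0.0505), and Lpl without the block (0.114).

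Oligodendrocyte transcripts were led by regulators and lipid enzymes. Of 11 measured lineage regulators, 8 rose and 0 fell, with a median of 2.59. Sox10, the transcription factor that defines the lineage, was at 5.36 and 5.09 in NA2, 8.67 and 9.06 in NAO and 8.40 and 8.69 in NAOM. It was newly visible, with a rise of 3.32 ± 0.16 (adjusted p = 4.72e-05). Myrf, the switch to myelin gene expression, was at 5.51 and 5.64, 9.10 and 9.07 and 8.77 and 8.90, a rise of 3.25 ± 0.10 (adjusted p = 5.96e-06). Both NAOM arrays of Sox10 and Myrf lay above NA2 and below the NAO arrays of the same number. Zfp488 rose by 3.54, Nkx2-2 by 2.76, Olig1 by 2.59 and Tspan2 by 2.40. Olig1 lost its call without NA2 replicate 1 (adjusted p = 0.0611), NA2 replicate 2 (0.0724) or NAOM replicate 2 (0.0609). The lineage count was 7 without the block and 6 or 7 with any of the 6 arrays left out. Olig2 (0.61) and Tcf7l2 (1.38) did not pass. Of 6 precursor genes 1 rose, Pdgfra, the platelet-derived growth factor receptor of precursors, at 5.28 and 5.08 in NA2 and 8.90 and 8.95 in NAOM.

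Of 10 enzymes of myelin lipids and lysophospholipids, 9 rose and 1 fell, with a median of 2.02. Ugt8, which makes the myelin galactolipids, was at 4.15 and 3.57 in NA2, 8.85 and 9.04 in NAO and 8.43 and 8.44 in NAOM, a rise of 4.58 ± 0.34 (adjusted p = 0.000367). Gal3st1, which sulfates those lipids, rose by 2.41, the fatty acid hydroxylase Fa2h by 1.75, the lysophospholipase Enpp2 by 2.30 and the lysophosphatidic acid receptor Lpar1 by 2.74. The count was 6 without the block and 5 without NA2 replicate 2. Of 11 myelin protein genes, 4 rose. Mag, an adhesion protein of the inner myelin layer, was at 5.87 and 4.45 in NA2 and 9.68 and 8.93 in NAOM, a rise of 4.15 ± 0.26. Cnp rose by 3.28 and Pllp by 3.18. Mbp, the main cytoplasmic myelin protein, was at 10.31 and 7.53 in NA2, 13.54 and 13.18 in NAO and 13.41 and 13.04 in NAOM. It was visible in NA2 already and its 2 NA2 arrays differed, as did the parents A1 and A4 at 11.19 and 7.76. Its rise of 4.30 ± 0.68 lost the call without the block (adjusted p = 0.211), without NA2 replicate 2 (0.13) and without NAOM replicate 2 (0.0951). Mog, Mobp, Opalin, Mal and Ermn, genes of mature myelin, did not pass; Mog was at 5.22 and 4.24 and Opalin at 3.84 and 3.73 in NAOM.

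Transcripts of the astrocytic RNA fell. Of 19 astrocyte genes, 9 fell and 0 rose, with a median of -0.85. Gja1, the main astrocyte gap junction protein, averaged 11.48 on the NA2 and 10.47 on the NAOM arrays. The groups did not overlap; the difference was -1.01 ± 0.10 (adjusted p = 0.0013). Aldh1a1, a retinaldehyde dehydrogenase, was at 8.79 and 9.40 and 7.24 and 7.89, and fell by 1.53 without overlap. Gfap, the astrocyte filament protein, was at 13.46 and 11.84 and 12.89 and 11.28, a difference of -0.57 ± 0.12 (adjusted p = 0.0393), with the oligodendrocytic parents at 10.63 and 9.04. Gfap lost its call whenever 1 NA2, NAO or NAOM array was left out (adjusted p 0.076 to 0.266). Glul, glutamine synthetase, did not pass (-0.02). The largest called fall by gene was that of Palld, an actin-associated protein, from 9.36 and 10.66 to 7.37 and 8.75 (-1.95 ± 0.25, adjusted p = 0.0041); its adjusted p was 0.0644 without NA2 replicate 1 and 0.58 without the block. Ajuba (-1.60), Adamtsl4 (-1.59), Synpo2 (-1.55), Olfml1 (-1.55), Fzd2 (-1.53), Thbs2 (-1.51), Gstm2 (-1.48) and Tc2n (-1.48) completed the 10 largest. All 10 exceed in size the log2 difference of -1.32 that the fractions give for a transcript found only in astrocytes. This gap was not tested. Without the block Aldh1a1 (adjusted p = 0.136), Adamtsl4 (0.124), Synpo2 (0.0567), Olfml1 (0.299), Thbs2 (0.428) and Gstm2 (0.288) lost their call too, as did Gja1 (0.737), and Olfml1 also without NA2 replicate 1 (0.0611). Of 4 Synpo2 probe sets, which differed by -1.55 to -0.17, 2 were called, and 1 of 2 was called for Ajuba and for Olfml1, with the other at -1.10 and -0.90.

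Matrix and contractile genes fell with them. Of 20 collagen and matrix genes, 14 fell, with a median of -1.10, and of 10 contractile genes 9 fell, with a median of -1.0. Col1a2, a chain of type I collagen, was at 7.20 and 12.64 in NA2 and 5.98 and 11.59 in NAOM. It was high in replicate 2 of both mixtures, as in the parent A4 (8.24 and 13.11 in A1 and A4), and its fall of 1.13 appeared within each pair. Tagln, a smooth muscle actin-binding protein, was at 12.42 and 13.21 and 11.09 and 12.33. Both lost their call without the block (adjusted p = 0.984 and 0.7), and Tagln also without NA2 replicate 1 (0.073) or NAOM replicate 1 (0.0554). Without the replicate block 0 of 19 astrocyte, 2 of 20 matrix and 0 of 10 contractile genes were called. Leaving out single arrays gave 6 astrocyte and 8 matrix genes without NA2 replicate 1, 5 and 9 without NA2 replicate 2, and 6 and 10 without either NAOM array.

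Neuronal genes gave no calls. Of 24 measured, 0 were higher or lower by the limma test (1 at an unadjusted p under 0.05, and 0 with or without the replicate block or with any array left out), with differences from -0.26 to 0.30 and a median of 0.03. Snap25, a synaptic vesicle fusion protein, was at 11.95 and 11.86 in NA2 and 11.96 and 11.91 in NAOM. Endothelial cells were not meant to be in the mixtures, and their genes were low. The 7 measured averaged 3.89 on both NA2 arrays and 3.97 and 3.94 in NAOM, and 0 were called. This did not hold for every type of cell outside the 4 named. The contractile genes of smooth muscle type averaged 9.83 and 11.48 in NA2, and the collagen and matrix genes 8.35 and 10.26. Of 6 pericyte genes 1 fell, Pdgfrb (-0.85). Of 11 lymphocyte and natural killer genes 1 rose, Cd4 (0.84), which rat macrophages also express; the T cell genes Cd3d, Cd3e and Cd3g did not pass. Of 8 reference and 13 cell division genes 0 were called, and of 11 sterol synthesis genes 1, Idi1 (0.46). Pdgfrb lost its call without the block, NA2 replicate 2 or either NAOM array, Cd4 without NA2 replicate 2, and Idi1 without the block or any of the 6 arrays. Other fits called more: 4 sterol genes rose with array weights and 4 with trended and robust variance, and the cell division gene Mki67 was called higher in 6 alternatives (adjusted p 0.0225 to 0.0389).

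**Figure D4:**
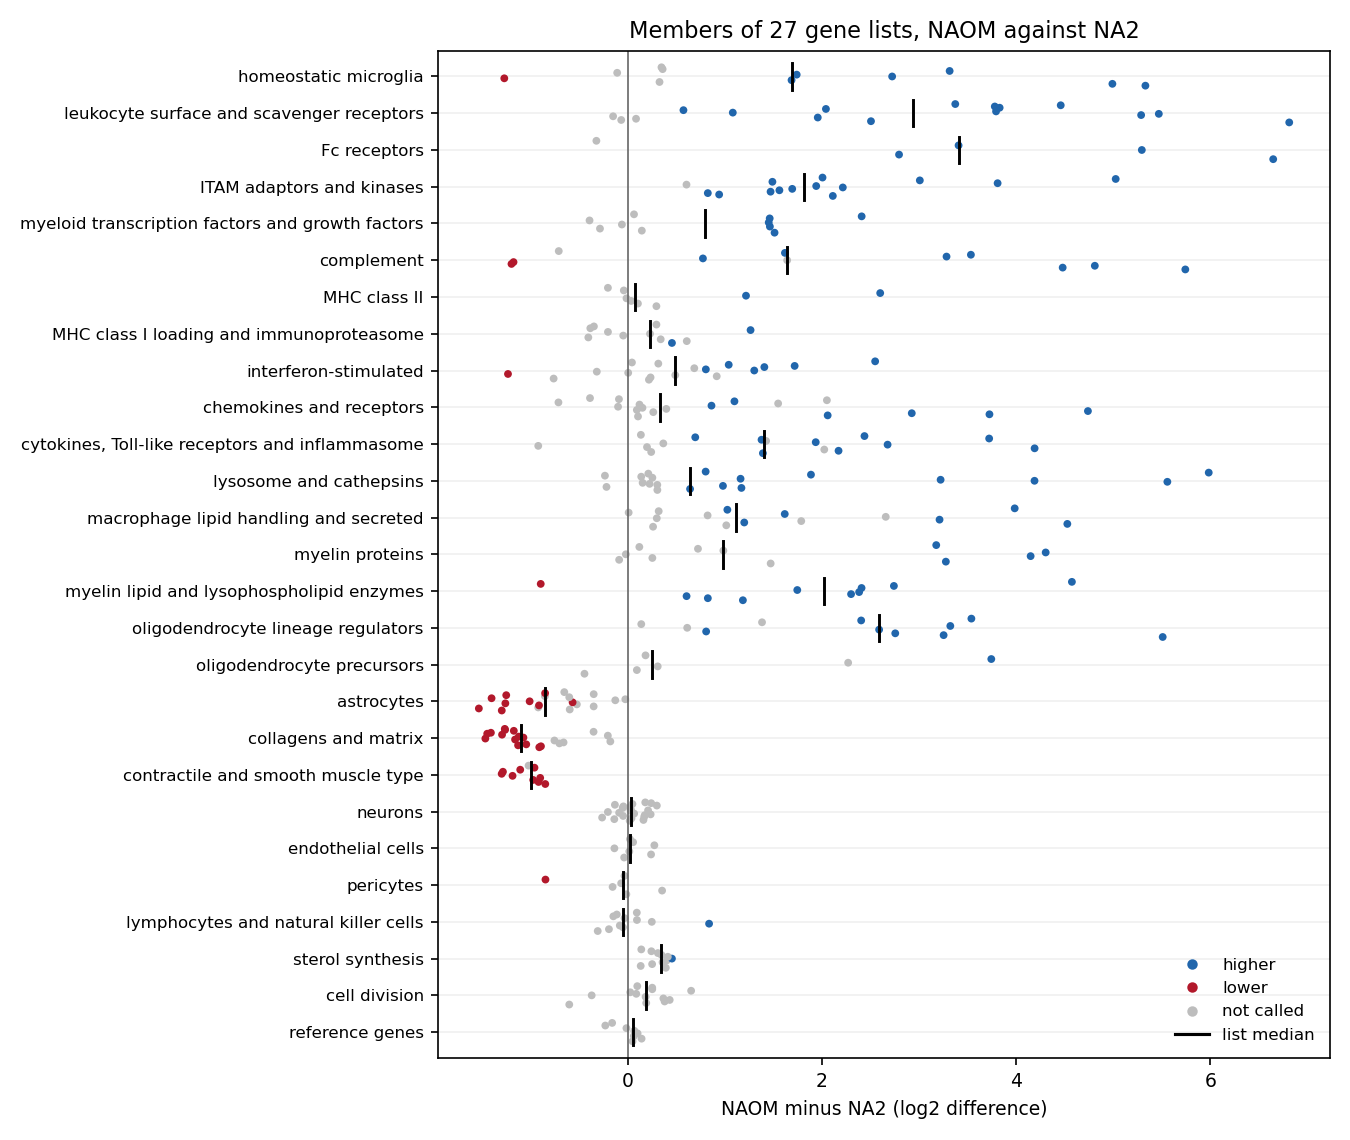
NAOM minus NA2 log2 difference (horizontal axis) of each measured gene of 27 lists (vertical axis); blue points were called higher, red lower and grey not called, and the black bar is the list median. Fc receptors (median 3.41) and leukocyte surface genes (2.94) lie farthest right, collagens (-1.10) farthest left, and the neuronal genes lie between -0.26 and 0.30.

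Observed differences were set beside those expected from the parents, as the fraction-weighted sum of their linear levels. For the 789 probe sets called higher the median was 1.17 observed and 1.39 expected, 788 had the same sign, and the median of observed minus expected was -0.09. For microglia-class probe sets called higher it was 1.36 observed and 1.73 expected. For the 722 called lower the median was -0.92 observed and -0.81 expected, with 701 of the same sign. P2ry12 rose by 2.72 where 3.84 was expected, and Gpr34 by 1.69 where 3.10 was expected, both of them dim in NAOM. Some bright genes lay above the expected value, a gap that was not tested: Lyz2 rose by 5.98 against 4.79, Mbp by 4.30 against 2.95 and Cnp by 3.28 against 2.28. Across the 789 probe sets observed and expected correlated at r = 0.958, a description over probe sets that share arrays and parents. With the log2 levels mixed in place of the linear ones, the median of observed minus expected was 0.49.

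**Figure D5:**
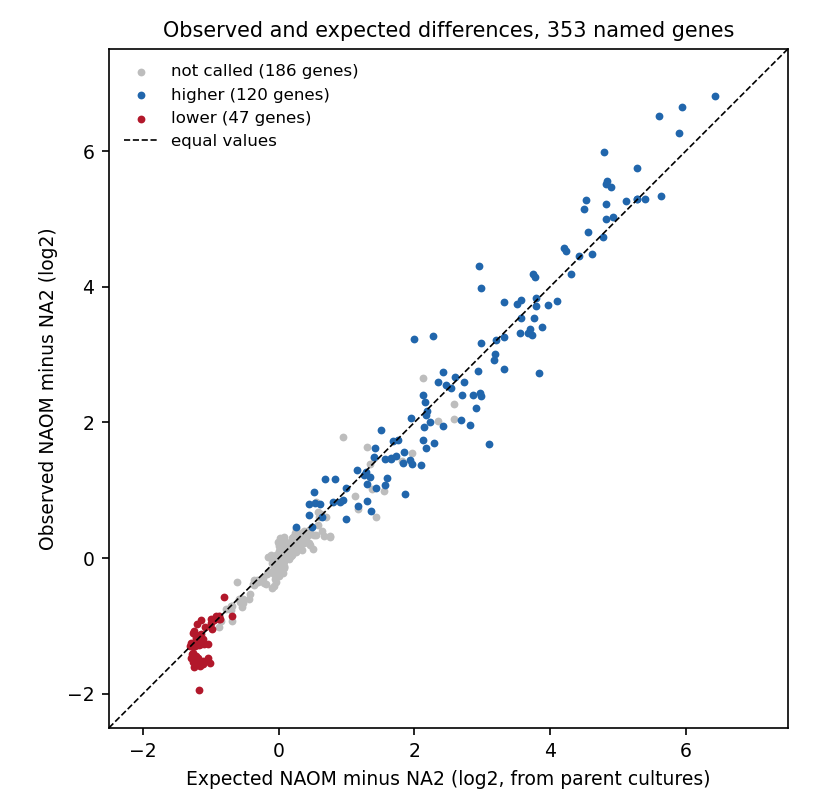
Observed (vertical axis) against expected (horizontal axis) NAOM minus NA2 log2 differences of the 353 named genes, coloured by call; the dashed line marks equal values. The 120 genes called higher and the 47 called lower follow the line, with P2ry12 (2.72 against 3.84) and Gpr34 (1.69 against 3.10) below it and Gpnmb (3.22 against 1.99) above it.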

How the data were processed

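Affymetrix arrays were read for cultures and mixtures. Each deposited number is a log2 expression level, computed by the authors with RMA (affy) per the submitters' processing notes; versions were not given in the sources used here. Of 31099 probe sets, 57 controls were left out and none for low values. Of the 31042 tested, 20826 carried 1 gene symbol in the platform annotation, 436 several and 9780 none; 20758 matched GRCr8 identifiers. Where a gene had several probe sets, the brightest on average over the 26 arrays stood for it.

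The 10 mixture arrays were fitted with limma 3.58.1 (R 4.3.3; lmFit, eBayes) with a mean per mixture and the replicate number as a block, leaving 4 residual degrees of freedom; p-values were Benjamini-Hochberg adjusted over all probe sets. The block was used because the labels tie each number to shared parents; deviations of same-numbered arrays correlated at 0.381 to 0.873 over 10 mixture pairs (NAOM with NA2 0.713). Cultures were fitted apart, on 16 arrays, for the classes; microglial replicate 4, described as a mixture but typed as a culture, was kept. SE is that of the fit. The number of arrays limits the precision.

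Named genes were the 15 largest rises and 10 largest falls among called genes of the same sign in both pairs, the members of 27 lists, and the 10 brightest newly visible genes; others are said to be named after their values were seen. The comparison, members and lists were chosen with earlier results of these data known. Alternatives covered the block, normalization, dim probe sets, variance model, array weights, arrays in the fit, each array left out, the visibility level, the cultures behind the classes and the mixing model. The calling code was tested on simulated data. Figures used matplotlib 3.10.9.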

Additional observations from a re-analysis of the deposited data

How the results depend on the processing

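No called gene among those named changed direction under the alternatives run. Fits without the block or with another variance model leave the difference itself unchanged, so no direction could change there. Called genes also had the same sign in both pairs, so constant direction is no separate support. Without the replicate block, NAOM exceeded NA2 at 420 probe sets and was lower at 126. NAO exceeded NA2 at 280 and was lower at 61, and NAOM exceeded NAO at 13. All of these were among the calls made with the block. In that fit 69 of the 353 named genes lost their call, and newly visible probe sets numbered 190. With array weights NAOM was higher than NA2 at 1177 and lower at 1300, NAO higher than NA2 at 1245 and lower at 1252, and NAOM higher than NAO at 99 and lower at 14. With NA2, NAO and NAOM alone in the fit these were 1141, 1335, 1227, 1044, 72 and 30. In both fits, as with NA2 and NAOM alone (886 and 937), falls from NA2 to NAOM outnumbered rises, against 789 rises and 722 falls. Trended and robust variance gave 3 probe sets lower in NAOM than in NAO. A minimum difference of log2 1 left 458 higher and 302 lower in NAOM than in NA2.

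Leaving out 1 array at a time gave 337 to 625 probe sets higher and 278 to 540 lower in NAOM than in NA2, 181 to 464 higher and 55 to 381 lower in NAO than in NA2, 0 to 29 higher in NAOM than in NAO, and 187 to 226 newly visible; such a fit takes the lone array to vary like the other mixtures. The oligodendrocyte class fell from 456 to 231 probe sets with the 8 cultures that are no parent. The median of observed minus expected was -0.057 for probe sets called higher with the mean of 4 cultures of each type and 0.49 with log2 mixing, and -0.12 for those called lower with log2 mixing. A fit of NA2 and NAOM alone, chosen after seeing the data, kept the counts of higher, lower and newly visible probe sets within 1.5 times. The causes were not tested. RMA values give no detection call, and how far background limits the dim transcripts was not tested.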

Other observations

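Some newly visible transcripts are given here, named after their values were seen. Pnlip, pancreatic lipase, was at 11.66 and 12.33 in the oligodendrocytic parents and rose by 5.28 ± 0.44. Saa3, an acute-phase apolipoprotein, was at 4.18 and 4.01 in NA2, 7.75 and 8.88 in NAO and 7.54 and 8.44 in NAOM. Pmel, a melanosome protein, was at 4.58 and 4.79, 7.46 and 8.42 and 7.48 and 8.27, and Rlbp1, a retinaldehyde-binding protein, at 3.73 and 3.71, 6.67 and 6.35 and 6.79 and 6.28. All 4 were of the oligodendrocyte class, and in each the NAO and NAOM arrays overlapped and stood above NA2.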
